A study of Drosophila melanogaster with 6 samples.

Results

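The expressed noncoding RNAs of the fly larval central nervous system are described here. They were chosen by their level: a row of the deposited tables was taken when its RefSeq identifier began with NR_, the prefix of noncoding transcripts, and its base mean was at least 30. The base mean is the mean over libraries of read counts divided by a size factor for depth. Of 3571 NR_ rows among 34115 rows in all, 115 were taken, which is 3.22%, and roX1 and roX2 were left out by the rule, although none of their 11 rows reached 30. The study compared the third-instar larval central nervous system of Drosophila melanogaster with and without RNA interference against dSET2, named Set2 in the gene table, a methyltransferase for lysine 36 of histone H3. The 3 control samples were dSET2 RNAi/+; Canton S and the 3 knockdown samples were dSET2 RNAi/+; elavC155GAL4, so every sample carried the RNAi transgene and the knockdown samples added the elav-C155 GAL4 driver, an X-linked insertion that is active in neurons. Each sample pooled 15 central nervous systems from larvae at 84 h after egg laying reared at 25 °C, and the series calls the 3 samples of a group biological replicates. In whole tissue, fewer cells of a type and less RNA per cell cannot be told apart.

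Noncoding RNAs act without being translated. Small nuclear RNAs splice introns or regulate transcription, small nucleolar RNAs guide the modification of ribosomal and spliceosomal RNA and in flies mostly lie in the introns of ribosomal protein and other housekeeping genes, and RNase MRP RNA takes part in processing the ribosomal RNA precursor. Long noncoding RNAs are a mixed class, often transcribed by RNA polymerase II and polyadenylated, and antisense RNAs are transcribed from the strand opposite a coding gene. Few of those named here have a described role, and many long noncoding RNAs of flies are most abundant in the nervous system or the testis.

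Of the 115 members, 114 matched 114 genes of the RefSeq gene table and NR_003862 matched none. The classes were 74 long noncoding RNAs, 24 antisense RNAs, 10 small nucleolar RNAs, 3 small nuclear RNAs, 2 RNAs of other kinds that carry a hairpin name, and RNase MRP RNA. They lay on every major chromosome arm, with 19 on 2L, 22 on 2R, 25 on 3L, 29 on 3R, 2 on chromosome 4 and 17 on the X. Their base means had a median of 58.4 and ran from 30.02 to 6542, and together they made up 0.293% of the sum of all base means. Of the other NR_ rows, 1720 were at 0 and 1736 lay between 0 and 30. For coding (NM_) rows, 5306 of 30544 reached 30, which is 17.4%. The rows just inside the limit were asRNA:CR45469 at 30.0182 and lncRNA:CR45639 at 30.1167, and those just outside were sncRNA:CR43603 at 29.591 and asRNA:CR45126 at 29.9583. No microRNA row was a member: 196 of 262 were at 0 and the highest had a base mean of 11.59. Of 29 spliceosomal and other structural RNA genes with a row on a list that named them, 15 were at 0, among them both signal recognition particle RNAs, and snRNA:U11 and RNase MRP RNA reached 30. That list had 37 entries, of which 29 were found in the gene table. The members snRNA:U12 and snRNA:7SKa were not among the 29 but also reached 30, with base means of 144 and 260. A value of 0 means that no read was counted for the row, not that the RNA was absent from the tissue. For the structural RNAs and the microRNAs, the part of RNA selection and of reads that match several gene copies was not tested.

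The tables hold no value per sample, but the base mean carries 10 digits and is built from whole reads, so read counts could be recovered for 93 members. The base means were made of 4 libraries, whereas the labels give 6 samples, and samples summed before the comparison would appear as 1 library. The 4 libraries carry no label and are called A, B, C and D here, with size factors of 1.48, 1.11, 0.902 and 0.701. In rows with a single read in all, the 499 rows with that read in A, the 427 in C and the 194 in D had positive fold changes and the 489 in B had negative ones. A positive log2 fold change therefore means higher in A, C and D, and a negative one higher in B. Which side is the knockdown is not stated, and Set2 itself was at 6.75 normalized reads (A), 32.4 (B), 23.3 (C) and 0 (D), and the authors' deposited edgeR table gave it a log2 fold change of -1.65 at a false discovery rate of 1. The side of B has 1 library, so its spread was not measured.

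Markers of other tissues differed between the sides. All 9 salivary gland markers at a base mean of 30 or more had higher values in B. Of these, 8 were past the edgeR threshold of the authors' deposited table. The summed level of the 9 was 162800 in B, of which ng3 made up about 128862, against 152.4 in the mean of A, C and D. Of the 5 under 30, 4 had higher values in B and 1 had a lower value. Of 8 fat body markers, 3 reached 30, all with higher values in B and none past the threshold, with sums of 76521 and 2819 that came mostly from Lsp1gamma and Lsp1alpha, while Mtp stood at 2262 and 2088 and Fbp1 was at 0. Another 4 fat body markers lay above 0 and under 30, 2 with higher and 2 with lower values in B. Their summed levels were 6.83 in B and 9.41 in the mean of A, C and D. Of 15 muscle markers, 3 reached 30, none past the threshold: Act57B and Mlc2 had higher values in B and carried the sums of 69308 and 14627, Tm1 stood at 206.7 in B and 213.8 in the others, 11 lay under 30, of which 9 had higher values in B, and Prm was at 0. Of 14 neuron markers, 12 had a base mean of 30 or more. All 12 had lower values in B, none past that threshold, with summed levels of 8573 in B and 13125 in A, C and D. The 2 under 30 also had lower values in B. The 4 glia markers at 30 or more had summed levels of 19114 in B and 21834 in A, C and D, with 3 lower in B, and the 9 neuroblast markers 7897 and 10390, with 7 lower in B, none of either list past the threshold. The part of these markers in the differences given below was not tested.

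Across the members, few passed the test between the sides. Of 115 members, 2 had a false discovery rate under 0.05 by the authors' deposited edgeR table, which is 1.74%, both higher in B. There the same threshold was passed by 0.868% of all rows, by 0.789% of all rows with the higher level in B, and by 3.41% of coding rows with a base mean of at least 30. An adjusted p-value under 0.05 by the authors' deposited DESeq2 table was held by 2 members, where 2.26% of all rows with an adjusted value did, and 1 of them was called in both tables. With an unadjusted p-value under 0.05 the authors' deposited edgeR table had 8 members, or 6.96%, beside 8.31% of the coding rows. Rows were also compared in bands of base mean. A coding gene can have several rows, and a row need not give the level of the whole gene. Beside coding rows of similar base mean the shares were as follows, with no test of the difference. From base mean 30 to 100, the edgeR threshold of the authors' deposited table was passed by 1 of 80 members and 78 of 1344 coding rows, or 1.25% and 5.8%, and an unadjusted p under 0.05 was held by 3.75% and 12.1%. From 100 to 1000 it was passed by 0 of 28 members and by 3.88% of 1984 coding rows, whereas an unadjusted p under 0.05 was held by 14.3% of the members and 9.93% of the coding rows, and the DESeq2 threshold was passed by 3.57% and 3.53%. From 1000 upwards the edgeR threshold was passed by 1 of 7 members and 26 of 1978 coding rows, the latter 1.31%.

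A member can reach the limit through 1 side alone. In the levels of the sides, 95 members were at 30 or more on both, 16 were under 30 in B and 4 were under 30 in the mean of A, C and D. CR32027 and CR43855, described below, are among the 4, and CR45600, CR44761, CR45112 and CR46349 among the 16. Counts over the members therefore describe the rows that the limit let through.

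The direction of the members was mixed, with 68 positive and 47 negative values in the authors' deposited edgeR table. Their median log2 fold change was 0.20, beside 0.00 for coding rows at or above 30. The size without sign has to be read by level: from base mean 30 to 100 its median was 0.36 for members and 0.52 for coding rows, from 100 to 1000 it was 0.47 and 0.36, and from 1000 upwards 0.40 for 7 members and 0.17. Past 2-fold and higher in A, C and D were 12 of 115 members and 289 of the 5306 coding rows at or above 30, the latter 5.45%. Past 2-fold and higher in B were 6 members and 362 of these coding rows, the latter 6.82%. In either direction it was 15.7% of members and 12.3% of these coding rows. By level, 13.8% of members and 22.7% of coding rows were past 2-fold from 30 to 100, and 21.4% and 14.3% from 100 to 1000. Long noncoding RNAs held 17 of these 18, and the last was an antisense RNA. The class medians in the authors' deposited edgeR table were 0.27 for long noncoding RNAs, 0.07 for antisense RNAs and -0.12 for small nucleolar RNAs. These are descriptions, since the members of a class are not replicates.

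**Figure D1:**
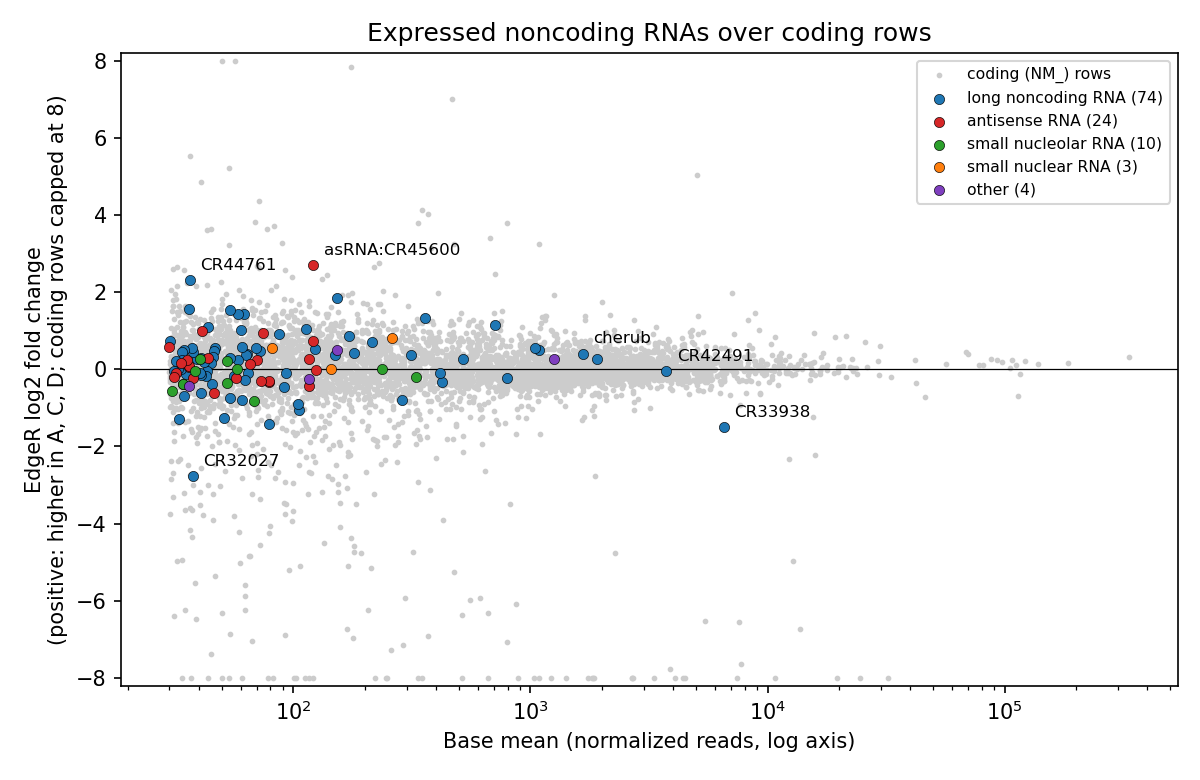
Base mean in normalized reads (log axis) against the edgeR log2 fold change of the authors' deposited table for the 115 noncoding RNAs, coloured by class, over the 5306 coding rows in grey, whose values are capped at 8. The noncoding RNAs lie between -2.76 and 2.70, and CR33938 has the highest base mean among them.

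lncRNA:CR32027 had the lowest log2 fold change of all members and was the only one past the threshold in both tables. It reached the base mean limit through B alone, since its mean over A, C and D was 15.0 normalized reads. Its normalized reads were 22.96 (A), 105 (B), 12.2 (C) and 9.98 (D), from 34, 117, 11 and 7 reads. Library B was the only high one, and its 95% Poisson interval of 87.2 to 126 did not overlap those of the others, of which the highest ended at 32.1. The authors' deposited edgeR table gave a log2 fold change of -2.76 at a false discovery rate of 0.0074, and the authors' deposited DESeq2 table -2.04 ± 0.594 (standard error) at an adjusted p-value of 0.0284. Computed from the normalized reads it stayed between -3.25 and -2.58 when A, C or D was left out. CR32027 lies inside Indy, a citrate transporter gene, on the opposite strand, and shares no exonic base with it. The highest Indy row had a base mean of 3.54 and a log2 fold change of -0.45, and the neighbour Cat, which encodes catalase, had 5357 and -0.57, neither past the threshold by the authors' deposited edgeR table.

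lncRNA:CR33938 was the most abundant member, with a base mean of 6542 over 505 exonic bases. Its reads were too many to recover per library, but the base mean and the fold change place it at about 12688 normalized reads in B and 4493 in the mean of A, C and D. The authors' deposited edgeR table gave a log2 fold change of -1.50, or 2.82-fold, at a false discovery rate of 0.0017. The authors' deposited DESeq2 table gave -1.24 ± 0.503 (standard error) at an adjusted p-value of 0.362, so the call rests on the first table. The gene overlaps no coding gene and lies between Ccp84Ac and Ccp84Ab, genes of a cuticle protein cluster. Ccp84Ab moved the other way, with a base mean of 53.3 and, by the authors' deposited edgeR table, a log2 fold change of 3.23 at a false discovery rate of 0.0497, and Ccp84Ac had a base mean of 1.31.

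asRNA:CR45600 was the member with the largest positive fold change. Its normalized reads were 108 (A), 23.4 (B), 192 (C) and 161 (D), from 160, 26, 173 and 113 reads. B was the low library and its interval of 15.3 to 34.3 lay below those of the others, of which the lowest began at 92.0. The authors' deposited DESeq2 table gave a log2 fold change of 2.15 ± 0.517 (standard error) at an adjusted p-value of 0.00215, and the authors' deposited edgeR table gave 2.70 at a false discovery rate of 0.079. With A, C or D left out, the value computed from the reads ran from 2.52 to 2.91. CR45600 touches 3 coding genes. CG6912 shares 20 exonic bases with it on the same strand and was also higher in A, C and D, at 1.92 by the authors' deposited edgeR table (false discovery rate 0.00985). CG3984, which covers 59.4% of its exonic bases on the opposite strand, was listed at 0, and CG3987 had a log2 fold change of 0.39 that did not pass.

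Other long noncoding RNAs had large fold changes that passed neither test. lncRNA:CR44761 stood at 39.2 normalized reads (A), 9.01 (B), 39.9 (C) and 58.4 (D), with B below the rest, and the authors' deposited edgeR table gave it 2.31 at a false discovery rate of 0.65. lncRNA:CR34335, inside an intron of the cell surface receptor gene DIP-alpha, stood at 152, 50.4, 70.9 and 335 in the same order. There B was lowest, but C lay much closer to B than to D, and the value computed from the reads fell from 1.88 to 1.14 without D. Of the 2 rows of CR34335, 1 was at 0. DIP-alpha lies on the same strand and shares no exonic base with CR34335. Its highest row had a base mean of 171 and, by the authors' deposited edgeR table, a log2 fold change of 0.53 that did not pass. lncRNA:CR45112 had 39.8, 14.4, 31.0 and 59.9 normalized reads and lncRNA:CR46349 had 84.4, 22.5, 78.7 and 31.4, with B again lowest in both. The authors' deposited edgeR table gave them 1.57 and 1.53. CR45112 lies next to another member, lncRNA:CR45111, whose log2 fold change was -0.17.

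On the other side, lncRNA:CR46123 had 34.4 normalized reads (A), 149 (B), 90.9 (C) and 41.3 (D), and a log2 fold change of -1.43 by the authors' deposited edgeR table. B was highest, with C between it and the others. lncRNA:CR40469 had 29.7, 89.2, 18.8 and 65.6, and lncRNA:CR43855 had 43.2, 59.5, 2.22 and 27.1. Both were highest in B, and CR43855 was near 0 in C: the value computed from the reads was -1.30 with all libraries, -0.76 without C and -2.02 without A. For CR40469 it was -1.23 with all libraries and -1.88 without D. CR43855 has 2 rows, neither of them at 0, so its values are those of the 1 row that reached 30. CR46123 lies inside Myo81F and CR43855 inside Sema1a, a semaphorin gene of axon guidance, each on the opposite strand with no shared exonic base. The coding genes had log2 fold changes of 0.94 (Myo81F) and 1.30 (Sema1a) in the authors' deposited edgeR table. These had the opposite sign, but neither passed the threshold, at low base means of 14.1 and 4.28.

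**Figure D2:**
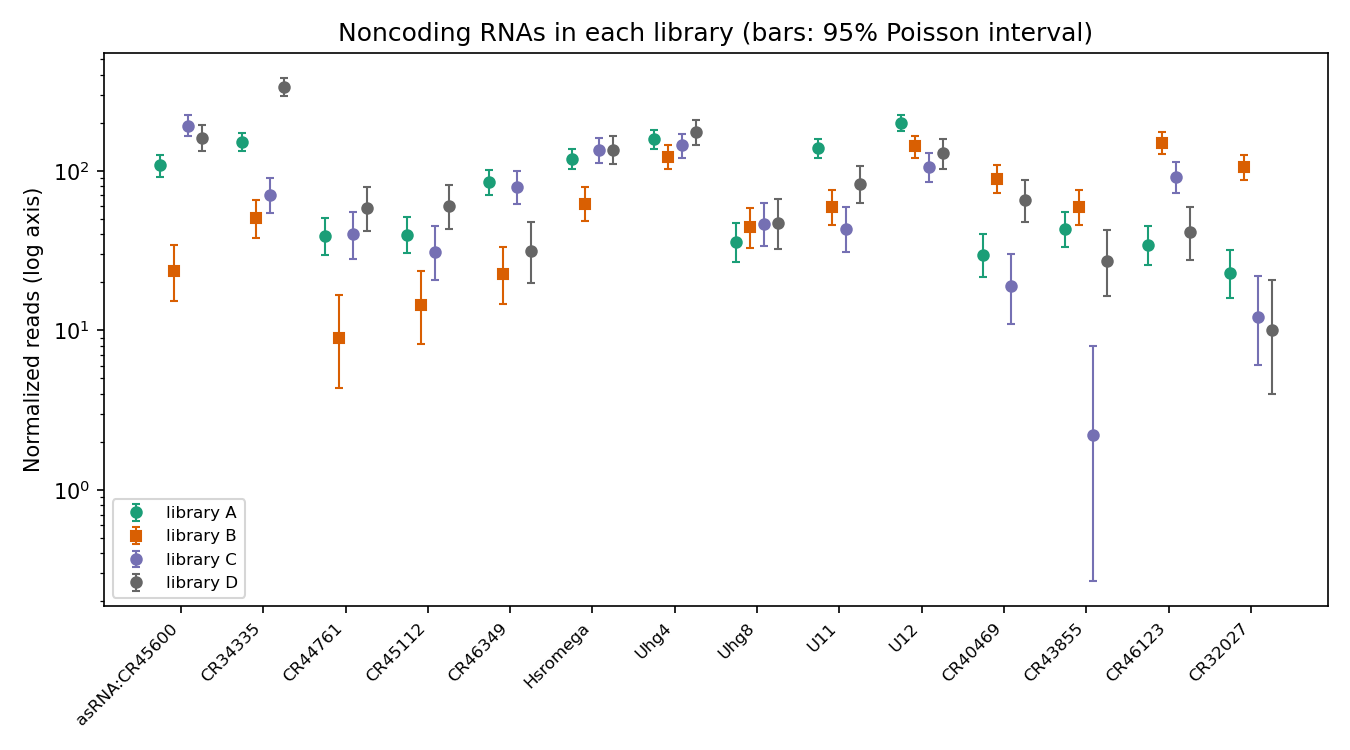
Normalized reads (log axis) of 14 noncoding RNAs in libraries A, B, C and D, with 95% Poisson intervals that cover counting error alone. B (squares) is far below the other libraries for CR45600 and CR44761 and far above them for CR32027, while Uhg8 lies between 35.8 and 47.0 in every library.

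Counted over all 93 members with reads, B lay above A, C and D in 20 and below all of them in 27. From base mean 30 to 100, B lay outside their range in 37 of 80 members, or 46.2%, beside 55.8% of 1338 coding rows. Among the 93, 16 were past 2-fold in the mean of the libraries, and 10 stayed past 2-fold with each of A, C and D left out. The sign changed in 13 members without A, in 6 without C and in 14 without D, none of them above 0.54 in size.

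Among the long noncoding RNAs with a described role, lncRNA:cherub had the highest base mean, 1662, which is not corrected for length. Its exons cover 8398 bases, beside 1077 for lncRNA:noe with a base mean of 793. Of the 3 rows of cherub, 2 were at 0, so its value is that of 1 row. cherub is an RNA of neuroblasts that is segregated asymmetrically at division and accumulates in brain tumours of brat mutants. The base mean and fold change place it at 1339 normalized reads in B and 1770 in A, C and D, a log2 fold change of 0.40 with an unadjusted p of 0.34 in the authors' deposited edgeR table. The sums of the 9 neuroblast markers, 7897 and 10390, differed in the same direction, with a median log2 fold change of 0.43 over the list, and their part in the value of cherub was not tested. The neighbour of cherub, lncRNA:CR31386, had 774 and 1132, at 0.55. lncRNA:noe, an RNA described from the nervous system, stood at 895 and 759, at -0.24. lncRNA:Hsromega, the heat-shock RNA that organises nuclear omega speckles, had 119 normalized reads (A), 62.2 (B), 134 (C) and 135 (D). A, C and D lay within 1.14-fold of each other with B below them, yet the authors' deposited edgeR table gave 1.05 at an unadjusted p of 0.141. Hsromega has 7 rows, of which 5 were at 0, so the value is that of the 1 row that reached 30. Of 11 genes with a row on the list of described long noncoding RNAs, 6 were at 0, and of the 3 that reached 30, none passed the test. The list had 58 entries, of which 13 were found in the gene table, so these counts cover part of it. The member lncRNA:mimi was not among the 11 and had a base mean of 708. The authors' deposited edgeR table gave mimi 1.15 at an unadjusted p of 0.0279, and it passed the threshold in neither table.

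Levels can be compared between genes only per length. Among genes with 1 row, the base mean per kb of exon was 12954 for CR33938, 5004 for lncRNA:CR42491, 2159 for snoRNA:Psi18S-531, 1859 for lncRNA:CR44832, 1113 for hpRNA:CR32207 and 1074 for snoRNA:Psi28S-291. lncRNA:CR46003 had the third highest base mean, 1899, but 90.3 per kb. CR42491 shares 377 of its 747 exonic bases with RpL22, a ribosomal protein gene with a base mean of 68423, on the same strand, and reads of the shared part cannot be told apart. hpRNA:CR32207, a hairpin RNA of the kind cut into endogenous small interfering RNAs, had a base mean of 1261, and the authors' deposited edgeR table gave log2 fold changes of 0.26 for it and for CR46003, neither past the threshold.

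None of the 3 small nuclear RNAs passed either test. snRNA:U11, of the minor spliceosome, had 138 normalized reads (A), 59.5 (B), 43.2 (C) and 82.7 (D). snRNA:U12, its partner in the same spliceosome, had 199.9, 142, 105 and 128. Both were highest in A and lowest in C, with B within the range of the others, and the log2 fold changes of 0.56 and 0.02 in the authors' deposited edgeR table did not pass. Computed from the reads, the value of U11 was 0.57 with all libraries and 0.08 without A. snRNA:7SKa, the RNA that holds the elongation factor P-TEFb inactive, stood at about 165 in B and 291 in A, C and D, a log2 fold change of 0.81 with an unadjusted p of 0.202 in the same table. RNase MRP RNA had a base mean of 152.9 and fold changes that differed between the tables, 0.50 in the authors' deposited edgeR table and 0.11 in their deposited DESeq2 table, neither past the threshold.

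Of the 10 small nucleolar RNAs none passed either test, and their log2 fold changes ran from -0.81 to 0.26 in the authors' deposited edgeR table. Counted among the 10 by its class in the gene table is scaRNA:MeU5-C46, whose name has the prefix scaRNA and whose value was 0.01. snoRNA:Psi28S-2648, a pseudouridylation guide for 28S ribosomal RNA by its name, had 89.8 normalized reads (A), 63.1 (B), 23.3 (C) and 34.2 (D). snoRNA:Psi28S-2626 had 49.3, 41.4, 22.2 and 9.98, and snoRNA:Or-CD12 had 72.3, 46.8, 52.1 and 38.5. In each of them A was highest. snoRNA:Me18S-C1831, named as a methylation guide for 18S ribosomal RNA, was highest in B, with 65.5, 101, 66.5 and 39.9. Of the 10 small nucleolar and small nuclear members with reads, 7 were highest in A, beside 117 of 1338 coding rows from base mean 30 to 100, or 8.74%, 2 were highest in B, beside 24.7%, and 6 were lowest in D, beside 29.5%. B lay outside the range of A, C and D in 3 of these 10. The 27 such RNAs with a base mean of 10 to 30, which are not members, were highest in A in 11 cases and in B in 9, or 40.7% and 33.3%, and lowest in D in 19. A had the largest size factor and D the smallest, and the part of depth in this pattern was not tested.

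**Figure D3:**
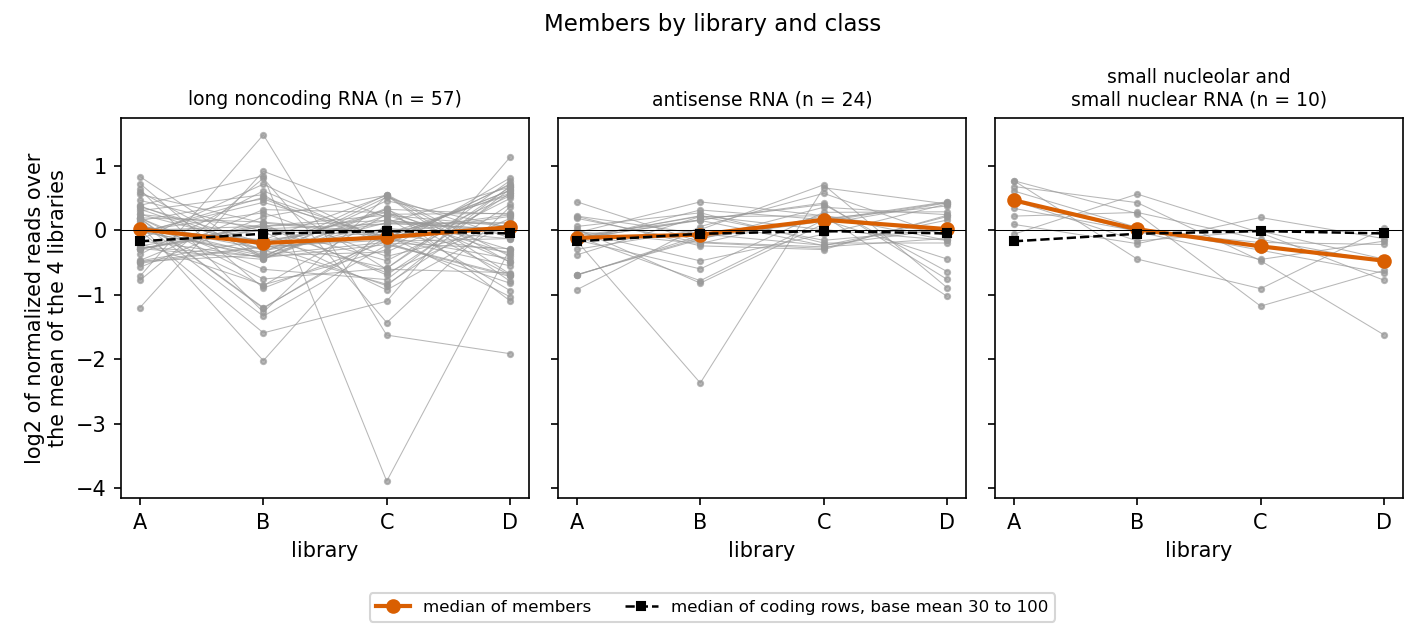
Log2 of normalized reads in each library over the mean of the 4 libraries, for members with reads in 3 classes (grey lines, 1 per RNA; orange, their median) beside the median of coding rows (black, dashed). The median of the small nucleolar and small nuclear RNAs goes from 0.47 in A to -0.47 in D, and those of the other classes stay between -0.19 and 0.17.

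The host genes of small nucleolar RNAs that are themselves noncoding differed little. Uhg4 had 157 normalized reads (A), 123 (B), 144 (C) and 174 (D), and Uhg8 had 35.8, 44.1, 46.6 and 47.0. Their log2 fold changes of 0.36 and -0.05 in the authors' deposited edgeR table did not pass. Of the 7 such host genes with a row on a list that named them, 2 were at 0, and Uhg4 and Uhg8 were the 2 that reached 30.

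Many members overlap a coding gene. By the annotation, 65 did, 48 of them on the opposite strand, 20 on the same strand and 3 on both, and 49 overlapped none. Whether the reads were counted by strand is not given in the sources used here, so reads from an exonic overlap cannot be assigned to 1 of the genes. The 24 antisense RNAs formed 30 pairs with a coding gene on the other strand. The highest row of the coding gene had a base mean of at least 30 in 14 pairs and of 0 in 8. A row need not give the level of the whole gene. Of the 14 pairs, 9 had fold changes of 1 sign, with a median difference of 0.35 log2 units between member and coding gene, and no coding gene of them was called. Among the antisense RNAs, asRNA:bsAS, opposite the transcription factor gene bs, had 69.6 normalized reads (A), 43.2 (B), 83.1 (C) and 101 (D). B was lowest, and the log2 fold changes in the authors' deposited edgeR table were 0.95 for bsAS and 0.43 for bs, neither past the threshold. asRNA:CR45822, which shares 79.4% of its exonic bases with CTCF, an insulator protein gene, had a log2 fold change of 0.24 in the same table, where CTCF had 0.05.

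The 10 small nucleolar RNAs all lie inside a coding gene on the same strand. In 7 of these the highest row of the coding gene had a base mean of at least 30, and 2 of the 7 pairs had fold changes of 1 sign. The rows used for ribosomal protein genes ran from 0 for RpL27A to 68423 for RpL22, and a row need not give the level of the whole gene. The RpL22 row stands in 2 of the pairs. The authors' deposited edgeR table gave RpL22 a log2 fold change of 0.46, while snoRNA:Psi18S-531 and snoRNA:Psi28S-2179 in its introns had -0.19 and -0.38. snoRNA:Psi28S-291, inside RpL3, had 0.02 where RpL3, another ribosomal protein gene, had -0.43. None of these values passed the test.

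**Figure D4:**
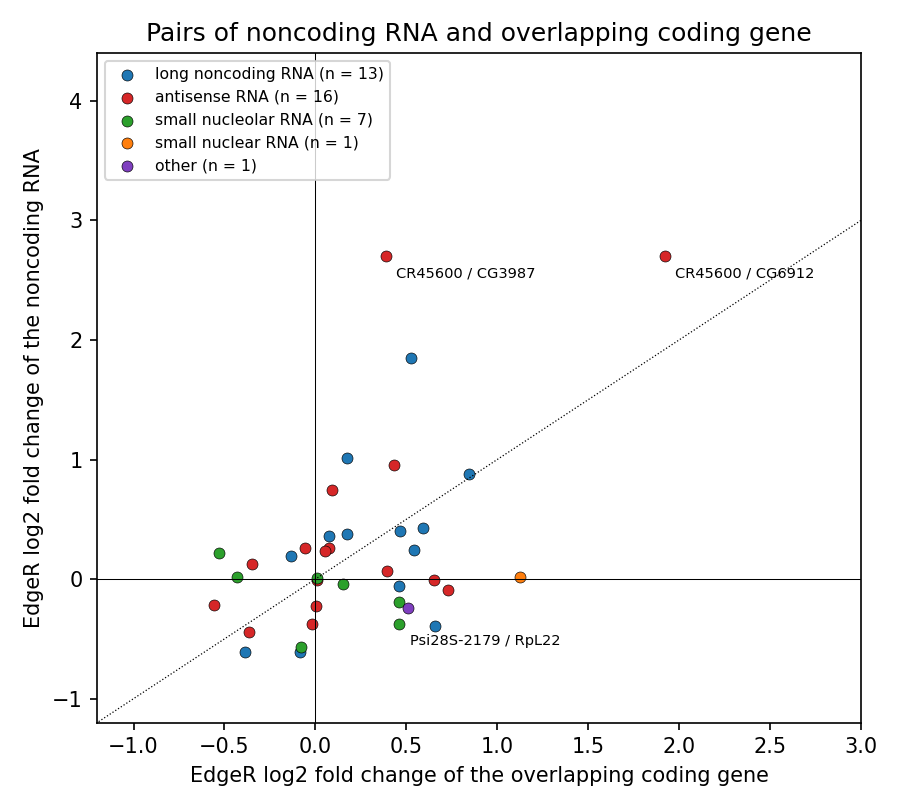
Log2 fold change of the authors' deposited edgeR table for 38 pairs of a noncoding RNA and an overlapping coding gene with a base mean of at least 30, coloured by class, with equality as the dotted line. asRNA:CR45600 has 2.70 in both of its pairs, beside 1.92 for CG6912 and 0.39 for CG3987, and most other pairs lie within 1 unit of 0.

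Members that are neighbours of each other gave mixed values in the authors' deposited edgeR table. lncRNA:CR32111 and lncRNA:CR43431, between the Iroquois homeobox genes caup and mirr, had -1.06 and -0.45. Their normalized reads were 95.9 (A), 174 (B), 93.1 (C) and 59.9 (D) for CR32111 and 66.2, 114, 111 and 74.1 for CR43431, both highest in B. lncRNA:CR44598, lncRNA:CR44597 and lncRNA:CR44596 lie in a row and had -0.09, -0.29 and 0.44. None of these passed the test.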

How the data were processed

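Transcript levels came from RNA sequencing of 6 samples in 2 groups. The authors deposited 2 tables of their own comparison, and the submitters' processing notes name HISAT2, featureCounts, DESeq2, edgeR and the genome build dm3, with no versions. The authors' DESeq2 table holds, per the file headers, the base mean, a signal of counts divided by size factors, the log2 fold change, its standard error and Wald statistic, each a score, and p-values. The authors' deposited edgeR table gives the log2 fold change, log2 CPM, an F statistic as a score and p-values with the false discovery rate. No test was rerun: the design had foreseen a test on counts, and the authors' deposited values took its place. With 1 library on a side, their p-values rest on the spread of the other side and of shared estimates across rows. The threshold was 0.05, adjusted by the authors over the rows of each table. In size, 110 of 115 members had a smaller log2 fold change in the authors' deposited DESeq2 table.

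Reads per library were recovered by solving each base mean for whole reads of 4 libraries, up to a base mean of 100 from the base mean alone and up to 160 where 1 solution lay within 0.06 of the authors' edgeR log2 fold change and 0.04 of their log2 CPM. This solved 80 and 13 members, and 22 were not solved. In simulated rows, 100% were resolved up to 100 and 95.3% up to 160, all of those to the true reads. These rows were made with the same size factors and calibration that were used to solve them, so error in those is not covered. Of 530 real rows solved from the base mean alone, 99.2% lay within both tolerances of the authors' edgeR values. For the other members the level of each side was worked out from the base mean and the authors' deposited edgeR fold change, with a largest error of 2.3% in the members with known reads. Poisson intervals cover counting error only.

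Names came from the RefSeq gene table of Release 6 plus ISO1 MT, and overlaps, neighbours and exon lengths from the Ensembl annotation BDGP6. For a coding gene with several rows, the row with the highest base mean was used, which need not give the level of the whole gene. The tables' build differs, so no positions are printed, and no sequences were used. Members, gene lists and tests were chosen with earlier results of these data known. Named were members past the threshold in either table, the 5 highest in base mean, the 5 largest fold changes in each direction, members on lists of structural RNAs, small nucleolar RNA hosts, microRNAs and described long noncoding RNAs, and rows next to the limit. The other members and the coding genes named were chosen after their values were seen. Python 3.11.15 with pandas 2.3.3, numpy 2.4.6 and scipy 1.17.1 was used.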

Additional observations from a re-analysis of the deposited data

How the results depend on the processing

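No paired analysis was possible because the tables give no value per labelled sample; for the same reason no refit with a left-out replicate or with other size factors was run. Of the 115 members 2 passed in the authors' deposited edgeR table, 0 higher in A, C and D and 2 higher in B. The authors' deposited DESeq2 table had 1 on each side, CR45600 and CR32027, and 1 (CR32027) passed in both tables, a setting chosen after seeing the data. With a threshold of 0.1, or with p-values adjusted over rows whose base mean reached 10, the number higher in A, C and D was 1, CR45600. A base mean minimum of 10 gave 4 of 309 rows, 1 of them higher in A, C and D. A minimum of 100 gave 1 of 35, higher in B, and leaving out members that overlap a coding gene gave 1 of 50, higher in B. Those 50 are the 49 without an overlap and NR_003862, which matched no gene and whose overlap is not known. The cause of the differences between tables was not tested; in the other settings rows or the threshold differed by construction. The percent of members past the threshold ran from 0.87 to 2.86. The median log2 fold change, 0.20, was 0.28 with a minimum of 100 and 0.33 without overlap with a coding gene, and it was positive in every setting. No member had opposite signs in the 2 tables. Of the 45 values of 15 named members with library A, C or D left out, chosen after seeing the data, 3 moved by more than 1.5-fold: CR34335 without D from 1.88 to 1.14, CR40469 without D from -1.23 to -1.88 and CR43855 without A from -1.30 to -2.02. The libraries carry no labels, 1 side has 1 library, and for members with a base mean near 30 counting error alone is wide.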
